A study of Homo sapiens with 18 samples.

Results

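RAB proteins are the largest family of small GTPases, and the mRNAs that encode them are followed here through the polysome gradient of human HEK293 cells. Members were taken by gene symbol, as RAB followed by a number and an optional letter and digit, which found 53 of the 13661 genes in the deposited table. That symbol rule uses no measured value, but it was chosen with earlier results of these data known. HEK293 is an established human embryonic kidney line. The labels give a 12 h exposure either to the antibiotic minocycline at 100 µM or to its vehicle, DMSO. Sucrose gradients then parted mRNAs by how many ribosomes they carry, into heavy polysomes, light polysomes and monosomes. The 9 libraries used here come from DMSO-treated cells, with 3 biological replicates of each fraction, and the other 9, after minocycline, are not analysed here. P-values therefore measure the spread between these biological replicates. Every comparison is therefore between fractions, or between genes, of DMSO-treated cells.

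A RAB protein cycles between a GTP-bound form, which recruits effectors to a membrane, and a GDP-bound form. Exchange factors load GTP, GTPase-activating proteins of the TBC family speed its hydrolysis, and RAB escort proteins and geranylgeranyl transferase attach the lipid that anchors the protein. GDP dissociation inhibitors extract the GDP-bound form from the membrane. Each RAB marks particular organelles, so the family is known as a code for membrane identity in secretion and endocytosis.

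The libraries held between 13447139 and 24441159 assigned reads, of which RAB mRNAs took 0.0834% to 0.127% in monosomes, 0.313% to 0.431% in light polysomes and 0.352% to 0.379% in heavy polysomes. Values are gene counts divided by 1 size factor per library, called normalized counts below. Size factors bring the typical gene to one level in all fractions. Percentages and loads are therefore relative between genes and do not tell how much RNA a fraction held. In monosomes, mitochondrial mRNAs took 3.87% of the reads of replicate 2, against 26.0% and 19.5% in replicates 1 and 3. Light polysome library 2 stood apart, correlating at 0.899 and 0.889 with light libraries 1 and 3 but at 0.939, 0.928 and 0.953 with the heavy libraries. Light libraries 1 and 3 correlated at 0.985. These are Pearson correlations of log2 values across genes. Counts of RAB genes called without replicate 2 are therefore given for the test of ribosome load and for each contrast of fractions. Of genes listed as markers, the 5 expected in HEK293, NEFM, NEFL, INA, VIM and UCHL1, were detected, with mean normalized counts of 112 (INA) to 6323 (VIM).

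The mean ribosome load (MRL) of a gene is the authors' index of ribosomes per mRNA. It is the share of its normalized count in each fraction of a gradient, weighted by 1 for monosomes, 2.5 for light and 6 for heavy polysomes. RAB7A (chr3, GRCh38), RAB14 (chr9), RAB35 (chr12) and RAB11B (chr19) had the highest MRL of the family. RAB26 (chr16), RAB40B (chr17), RAB40A (chrX) and RAB22A (chr20) had the lowest among members with enough reads. Their annotated start codons are shown because translation of each coding sequence begins there. The ATG is in capitals with 12 bases before and 5 after it, 5′ to 3′, from GENCODE release 29 transcripts. The ATG of RAB7A is at chr3:128795368-128795370 (+), of RAB14 at chr9:121193410-121193412 (−), of RAB35 at chr12:120116648-120116650 (−) and of RAB11B at chr19:8390417-8390419 (+). That of RAB26 is at chr16:2148784-2148786 (+), of RAB40B at chr17:82698594-82698596 (−), of RAB40A at chrX:103500754-103500756 (−) and of RAB22A at chr20:58309977-58309979 (+).
RAB7A: cgcgtttgaaggATGacctc
RAB14: cccagtgccaccATGgcaac
RAB35: cccccgcccgccATGgcccg
RAB11B: agcgccaggacaATGgggac
RAB26: cgcccgcccgccATGtccag
RAB40B: cgggccgtcacgATGagcgc
RAB40A: ggggccagcaccATGagcgc
RAB22A: ggctcccgggccATGgcgct
All 8 have A or G 3 bases before the ATG, a feature of strong start contexts, as do 46 of the 51 members compared. RAB2A, whose start context is not reported here, was not among the 51. These 46 had a median MRL of 3.22, against 3.10 for the other 5. A G directly after the ATG was present in 26 of 51 members, with a median MRL of 3.31 against 3.07 in the other 25. These medians are descriptions of the annotated contexts.

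None of these 4 highest members has an ATG in the annotated 5′ UTR of its representative transcript, and each of the 4 lowest has at least 1. The next lowest, RAB4A, has 0, as do RAB39A and RAB33B. An upstream ATG can start a short reading frame that ribosomes translate before the main one. The upstream ATGs of 3 low members are shown beside those of RAB8A, which has 2 and yet a high MRL. The upstream ATG is in capitals. The sites are chr16:2148645-2148647 (+) and chr16:2148648-2148650 (+) for RAB26, chr17:82698620-82698622 (−) for RAB40B, and chr20:58309739-58309741 (+) and chr20:58309903-58309905 (+) for RAB22A. The RAB8A sites are chr19:16111690-16111692 (+) and chr19:16111837-16111839 (+).
RAB26 first upstream ATG: cgggcgcccgggATGatgcc
RAB26 second upstream ATG: gcgcccgggatgATGccgcc
RAB40B upstream ATG: cgcaggccgggcATGggtgg
RAB22A first upstream ATG: cggcgtcccaagATGgcggc
RAB22A second upstream ATG: cggcgccaggggATGctctt
RAB8A first upstream ATG: tagtgccggccaATGggagg
RAB8A second upstream ATG: ggctcggtgctgATGgacgg
The RAB40B frame starts 26 nt before the start codon and overlaps it. The RAB26 frames, which start 139 and 136 nt before the start codon, end before it, as do those of RAB22A, 238 and 74 nt before it. In RAB8A the first frame, 212 nt before the start codon, ends before it and the second, 65 nt before it, overlaps it. RAB40A has 46 upstream ATGs in an annotated 5′ UTR, none of them shown.

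RAB mRNAs spread over the gradient about as widely as other mRNAs. Of the 53, 52 passed the filter of a mean of at least 10 reads over the 9 libraries with reads in each gradient. RAB33A, a paralog of the Golgi protein RAB33B, did not, with 12.9, 33.2 and 14.5 normalized counts in monosomes, 7.29, 9.78 and 11.9 in light and 2.46, 2.71 and 5.17 in heavy polysomes. The median MRL of the 52 was 3.24 ± 0.17 (SD, n = 3 gradients), against 3.17 ± 0.01 for all 12720 genes kept. Medians of MRL given with ±, also those of lists, are the mean and SD of the 3 medians within gradients. Those without ±, unless given per gradient, are medians over genes of the mean MRL. The SD of MRL across genes was 0.745 for RAB genes and 0.764 for all genes kept. A heavy polysome lead by mean percentage was seen for 18 of the 53, a light polysome lead for 20 and a monosome lead for 15. Lead fractions were not counted over all genes, so these counts are not compared. In the authors' deposited strict classes, 5 of the 53 (9.43%) are heavy polysome, 3 (5.66%) monosome and 3 (5.66%) light polysome genes, and 42 (79.2%) are mixed. In the authors' deposited table as a whole, 12.1% of genes are heavy polysome, 11.3% monosome, 3.67% light polysome and 72.9% mixed.

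Of the 52, 11 lay above the median gene in MRL, 13 lay below it and 28 did not pass the test. The test was limma's moderated test of log2 MRL minus the median gene of the same gradient, with Benjamini-Hochberg adjustment over all genes kept. Over all genes kept, 46.7% were called, 22% as higher and 24.7% as lower, and the RAB shares of 21.2% and 25% lie near that background. The higher ones were RAB7A, RAB14, RAB35, RAB11B, RAB6A, RAB6B, RAB8A, RAB3D, RAB2A, RAB12 and RAB10. The lower ones were RAB26, RAB40B, RAB40A, RAB22A, RAB4A, RAB39B, RAB15, RAB39A, RAB33B, RAB27B, RAB31, RAB28 and RAB24. Without replicate 1 the counts were 6 higher and 8 lower, without replicate 2 they were 17 and 12, and without replicate 3 they were 5 and 13. No counts over all genes are set beside these, so their rise or fall is not read as a trait of RAB genes. Of the 24 calls, 12 passed in each of these 3 fits, those of RAB7A, RAB14, RAB35, RAB6A, RAB26, RAB40B, RAB40A, RAB22A, RAB4A, RAB39B, RAB15 and RAB39A.

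**Figure D1:**
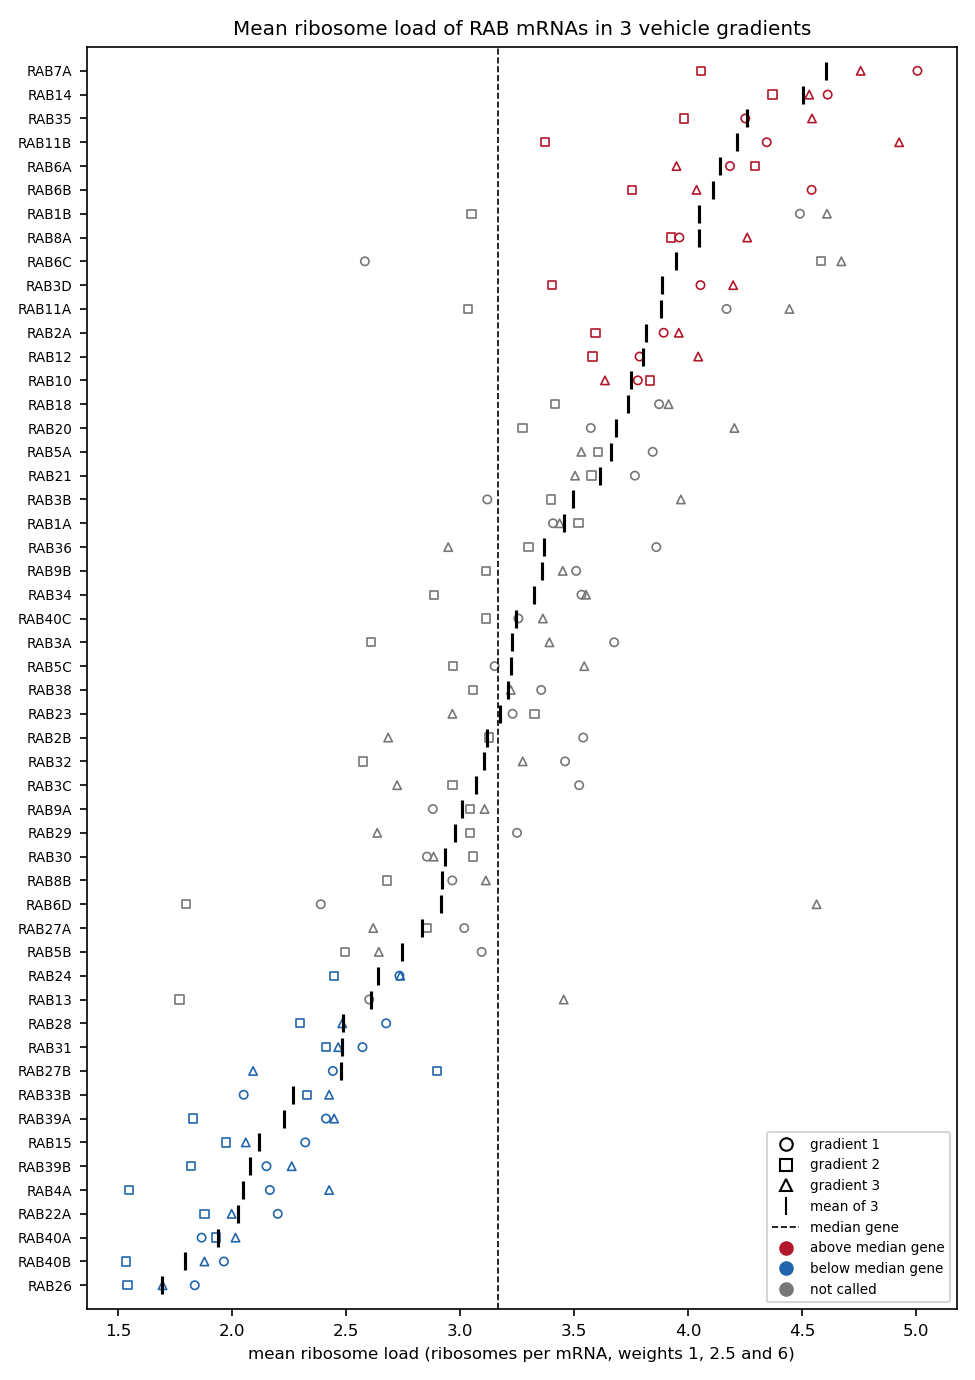
Mean ribosome load (horizontal axis, ribosomes per mRNA) of the 52 RAB mRNAs kept, 1 row each, with 1 open symbol per gradient and a bar at the mean; colours mark calls against the median gene (dashed line). RAB7A stands at the top with a mean of 4.61 and RAB26 at the bottom with 1.69, while RAB6D, RAB6C and RAB13 spread widely between gradients.

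The order of neighbouring members was not resolved. Of the 51 pairs of neighbours in the MRL order, 1 was ordered the same way in all 3 gradients. The ranks of the 52 correlated between gradients at a Spearman coefficient of 0.80 (1 and 2), 0.77 (1 and 3) and 0.72 (2 and 3), across genes that share libraries and are not independent. The median SD of MRL over gradients was 0.231 for RAB genes, against 0.316 for all genes kept. RAB6D had the widest spread, with an MRL of 2.39, 1.80 and 4.56 in gradients 1, 2 and 3, followed by RAB6C with 2.58, 4.58 and 4.67.

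Members were also grouped into lists by role, and call counts of each role list are read against 22% higher and 24.7% lower among all genes kept. Among RABs of the endoplasmic reticulum and Golgi, most members did not pass the MRL test. Of the 9 kept, RAB6A, RAB6B and RAB2A were called higher in MRL and RAB33B lower, and the list median was 3.73 ± 0.28 (SD, n = 3). RAB6A, which directs traffic within and from the Golgi, had 267, 443 and 312 normalized counts in monosomes, 1209, 1877 and 1539 in light and 1589, 2822 and 1534 in heavy polysomes. Every polysome library was above every monosome library, and MRL was 4.14 ± 0.18 (SD, n = 3; limma adjusted p = 0.00474). Its paralog RAB6B had 47.4, 149 and 80.7 in monosomes, 98.4, 210 and 90.3 in light and 253, 299 and 196 in heavy polysomes. The heavy libraries of RAB6B lay above those of the other fractions except that its light library 2, at 210, exceeded the lowest of them. Without replicate 1 the MRL call of RAB6B was lost (limma adjusted p = 0.142).

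RAB2A, which acts between the endoplasmic reticulum and the Golgi, had 757, 628 and 604 normalized counts in monosomes, 2176, 3666 and 2478 in light and 2476, 2344 and 2646 in heavy polysomes. Light and heavy libraries overlapped each other and lay above all monosome libraries. Its MRL of 3.81 ± 0.19 passed (limma adjusted p = 0.0276), but not without replicate 1 (adjusted p = 0.237) or 3 (adjusted p = 0.191). RAB2B had 181, 320 and 501 in monosomes, 427, 607 and 325 in light and 367, 369 and 272 in heavy polysomes, with overlap among all fractions and an MRL of 3.12 ± 0.43. RAB1A and RAB1B carry the first step of export from the endoplasmic reticulum. RAB1A had 1145, 1670 and 1121 in monosomes, 3366, 3455 and 4575 in light and 2240, 3115 and 2735 in heavy polysomes. Its light libraries were highest in each gradient, and its MRL of 3.45 ± 0.06 varied least of the family. RAB1B had 737, 1791 and 725 in monosomes, 1630, 2569 and 1074 in light and 3852, 1722 and 3508 in heavy polysomes. In replicates 1 and 3 its heavy library was highest, while in replicate 2 the light library was and the monosome library exceeded the heavy one. The MRL of RAB1B was 4.49, 3.05 and 4.61 in gradients 1, 2 and 3 and did not pass (limma adjusted p = 0.0554), though it did without replicate 2 (adjusted p = 4.3e-05).

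Of the other members, RAB33B stood lowest. RAB18, found on lipid droplets and the endoplasmic reticulum, had an MRL of 3.73 ± 0.28 (limma adjusted p = 0.0527), and RAB30, a Golgi protein, 2.93 ± 0.11. RAB33B, a Golgi protein that binds the autophagy factor ATG16L1, had 425, 869 and 572 normalized counts in monosomes, 201, 603 and 349 in light and 90.0, 287 and 221 in heavy polysomes. Counts declined from monosome to heavy in each gradient, and MRL was 2.27 ± 0.19 (limma adjusted p = 0.00498; without replicate 1, adjusted p = 0.0606).

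Early endosomal RABs had a list median of 3.21 ± 0.27 (SD, n = 3), near the median gene, with 0 of 7 higher and RAB22A and RAB31 lower. RAB5A, the regulator of early endosome fusion, had 328, 569 and 526 normalized counts in monosomes, 803, 2325 and 1071 in light and 933, 1689 and 987 in heavy polysomes. Both polysome fractions lay above all monosome libraries, and MRL was 3.66 ± 0.16 (limma adjusted p = 0.0684; without replicate 2, adjusted p = 0.032). RAB5B had 1052, 1670 and 1649 in monosomes, 1428, 1895 and 1726 in light and 1050, 708 and 880 in heavy polysomes, so that its heavy libraries were lowest in each gradient. RAB5C had 354, 630 and 220 in monosomes, 1232, 449 and 1384 in light and 548, 479 and 816 in heavy polysomes. Light library 2 of RAB5C was far below light libraries 1 and 3. MRL was 2.74 ± 0.31 for RAB5B and 3.22 ± 0.29 for RAB5C, neither of which passed.

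RAB22A, which sorts cargo from early endosomes, had 813, 713 and 1159 normalized counts in monosomes, 1155, 140 and 1106 in light and 165, 131 and 150 in heavy polysomes. Its heavy libraries lay below all others except that light library 2, at 140, fell among them. MRL was 2.03 ± 0.16, a log2 difference of -0.65 ± 0.10 from the median gene (SE; limma adjusted p = 0.00148). RAB31, its closest paralog, had 586, 599 and 862 in monosomes, 1718, 657 and 1780 in light and 304, 220 and 339 in heavy polysomes. The heavy libraries of RAB31 lay below all others, and 56.7% ± 11.0 of its signal was in light polysomes, the highest light share of the family. Its MRL was 2.48 ± 0.08 (limma adjusted p = 0.0144; without replicate 1, adjusted p = 0.0907). RAB21, which carries integrins, and RAB20, an endosomal and phagosomal protein, had MRLs of 3.62 ± 0.14 and 3.68 ± 0.47 and did not pass with all replicates. Without replicate 2 both passed (limma adjusted p = 0.0477 and 0.0111).

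Recycling RABs fell at both ends of the order, with 3 of 6 higher, 2 lower and a list median of 3.97 ± 0.68 (SD, n = 3). RAB14, which moves cargo between the trans-Golgi network and endosomes, had 535, 531 and 486 normalized counts in monosomes, 1102, 1750 and 880 in light and 3067, 3104 and 2384 in heavy polysomes. Its fractions did not overlap. MRL was 4.50 ± 0.12, a log2 difference of 0.51 ± 0.07 from the median gene (SE; limma adjusted p = 0.00122), and 2.74% of genes kept had a higher MRL. RAB35, which acts in fast recycling and cell division, had 151, 161 and 98.5 in monosomes, 239, 349 and 219 in light and 520, 494 and 546 in heavy polysomes. Its fractions did not overlap either, and MRL was 4.26 ± 0.28 (limma adjusted p = 0.00358).

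RAB11A and RAB11B define the recycling endosome. RAB11B had 354, 588 and 178 normalized counts in monosomes, 454, 826 and 410 in light and 1220, 804 and 1573 in heavy polysomes. In replicate 2 its heavy library lay slightly below the light one, unlike in replicates 1 and 3, and MRL was 4.34, 3.37 and 4.92. The call (limma adjusted p = 0.019) was lost without replicate 1 (adjusted p = 0.0527) or 3 (adjusted p = 0.125). RAB11A had 3004, 3288 and 1665 in monosomes, 1864, 4416 and 1871 in light and 6893, 3048 and 6022 in heavy polysomes, the highest mean of the family at 3564. Heavy library 2 of RAB11A was below its monosome library 2, and MRL was 4.17, 3.03 and 4.44 (limma adjusted p = 0.0822; without replicate 2, adjusted p = 0.000234).

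At the low end of this list, RAB4A, another fast recycling protein, had 3441, 4985 and 2910 normalized counts in monosomes, 3332, 868 and 3425 in light and 755, 428 and 1088 in heavy polysomes. All heavy libraries lay below all monosome libraries, and light library 2 fell among the heavy ones. MRL was 2.05 ± 0.45 (limma adjusted p = 0.00509). RAB15, which also acts in endosomal recycling, had an MRL of 2.12 ± 0.18 with 11.2% ± 2.7 of its signal in heavy polysomes (limma adjusted p = 0.00227).

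RAB7A, the late endosome and lysosome RAB, had the highest MRL of the family. It had 643, 798 and 599 normalized counts in monosomes, 1906, 4706 and 1689 in light and 7388, 5028 and 4873 in heavy polysomes. The 3 fractions did not overlap, although light library 2 came close to the heavy ones. MRL was 5.01, 4.06 and 4.76 in gradients 1, 2 and 3, a log2 difference of 0.54 ± 0.08 from the median gene (SE; limma adjusted p = 0.00178), and 1.70% of genes kept had a higher one. Heavy polysomes held 63.4% ± 13.9 of its signal (SD, n = 3). The list median was 3.24 ± 0.18, with 2 of 8 higher (RAB7A and RAB12) and 1 lower (RAB24).

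RAB12, which takes part in degradation of the transferrin receptor, had an MRL of 3.80 ± 0.23 (limma adjusted p = 0.0314), a call lost without replicate 1 (adjusted p = 0.208) or 3 (adjusted p = 0.246). RAB24, an atypical member linked to autophagy, had 2.64 ± 0.17 (limma adjusted p = 0.0466) and did not pass without any 1 of the 3 replicates (adjusted p = 0.209, 0.0709 and 0.0847). RAB9A, which returns receptors from late endosomes to the trans-Golgi network, had 1067, 1016 and 899 normalized counts in monosomes, 1365, 1184 and 1724 in light and 809, 918 and 1016 in heavy polysomes. Its light libraries were highest in each gradient. RAB9B had 60.4, 78.2 and 61.4 in monosomes, 90.4, 66.4 and 75.4 in light and 97.4, 71.4 and 87.0 in heavy polysomes, with overlap among fractions. RAB32, which serves lysosome-related organelles, had 433, 1023 and 589 in monosomes, 979, 1643 and 1165 in light and 790, 505 and 823 in heavy polysomes. RAB38, its melanosomal paralog, had 41.0, 52.1 and 54.9 in monosomes, 41.6, 77.5 and 36.6 in light and 49.9, 51.0 and 53.4 in heavy polysomes. Light libraries of RAB32 were highest in each gradient, and those of RAB38 spanned the other fractions. MRL was 3.01 ± 0.12 for RAB9A, 3.36 ± 0.21 for RAB9B, 3.10 ± 0.47 for RAB32 and 3.21 ± 0.15 for RAB38, and 2.98 ± 0.31 for RAB29, a partner of the kinase LRRK2; none passed.

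Exocytic RABs had a list median of 3.14 ± 0.25 (SD, n = 3), with RAB8A, RAB3D and RAB10 of 11 higher and RAB26 and RAB27B lower. RAB8A, which acts in transport to the plasma membrane and in cilia, had 395, 211 and 273 normalized counts in monosomes, 598, 633 and 406 in light and 1002, 730 and 921 in heavy polysomes. Its fractions did not overlap, and MRL was 4.05 ± 0.18 (limma adjusted p = 0.0076; without replicate 3, adjusted p = 0.0647). RAB8B had 375, 299 and 333 in monosomes, 236, 371 and 214 in light and 279, 171 and 289 in heavy polysomes, with its heavy libraries all below its monosome libraries and an MRL of 2.92 ± 0.22. RAB10, which brings glucose transporters to the cell surface, had 882, 907 and 875 in monosomes, 2275, 3513 and 3018 in light and 2413, 3345 and 2423 in heavy polysomes. Light and heavy libraries of RAB10 overlapped well above its monosome libraries. Its MRL of 3.75 ± 0.10 passed (limma adjusted p = 0.0366), but not without replicate 1 (adjusted p = 0.273) or 3 (adjusted p = 0.14).

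RAB13, which acts at tight junctions, had 3180, 6141 and 1762 normalized counts in monosomes, 2308, 1180 and 2225 in light and 1566, 913 and 2532 in heavy polysomes. Monosome library 2 was the highest and heavy library 2 the lowest of the 9, whereas in replicate 3 the heavy library led. MRL was 2.60, 1.77 and 3.45 and did not pass, but did without replicate 3 (limma adjusted p = 0.000436, lower). Per kilobase of its representative transcript RAB13 had the highest level of the family, 2060, followed by RAB7A with 1368, RAB1A with 1064 and RAB1B with 975. The RAB13 transcript has 1176 nt, and 55.3% of its 75-nt windows also occur in transcripts of another gene, so this rank is uncertain.

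The RAB3 proteins sit on regulated secretory vesicles. RAB3A had 81.9, 156 and 84.0 normalized counts in monosomes, 150, 91.5 and 140 in light and 170, 77.2 and 125 in heavy polysomes. RAB3B had 94.9, 42.6 and 46.8 in monosomes, 106, 95.7 and 86.6 in light and 92.5, 72.3 and 131 in heavy polysomes. In RAB3A, replicate 2 ran opposite to replicates 1 and 3, and in RAB3B all fractions overlapped. RAB3D had 164, 159 and 102 in monosomes, 263, 366 and 273 in light and 467, 274 and 438 in heavy polysomes, with all polysome libraries above all monosome libraries. Its MRL of 3.88 ± 0.42 passed (limma adjusted p = 0.031), but not without replicate 1 (adjusted p = 0.23) or 3 (adjusted p = 0.214). RAB3C, the rarest RAB3, had 3.07 ± 0.41 on a mean of 34 reads.

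RAB26, which acts on secretory granules, had the lowest MRL of those kept. It had 267, 227 and 349 normalized counts in monosomes, 152, 31.4 and 88.8 in light and 29.5, 20.8 and 39.6 in heavy polysomes. Monosome libraries lay above all polysome libraries, and light library 2 fell among the heavy ones. MRL was 1.69 ± 0.15, a log2 difference of -0.91 ± 0.10 from the median gene (SE; limma adjusted p = 0.000426), and 71.3% ± 11.0 of the signal was in monosomes. RAB27A, needed for release of melanosomes and lytic granules, had 101, 128 and 171 in monosomes, 228, 164 and 244 in light and 108, 94.0 and 90.5 in heavy polysomes. RAB27B had 15.1, 7.11 and 27.4 in monosomes, 23.3, 15.4 and 23.9 in light and 5.73, 6.32 and 5.17 in heavy polysomes, from as few as 3 reads in a library. In both, heavy libraries were below the light ones. RAB27A had an MRL of 2.83 ± 0.20 and did not pass, and RAB27B 2.48 ± 0.40, a call (limma adjusted p = 0.0268) lost without replicate 1 (adjusted p = 0.105) or 3 (adjusted p = 0.145).

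Among the 3 ciliary members, RAB28 had a lower MRL of 2.49 ± 0.19 (limma adjusted p = 0.0172; without replicate 1, adjusted p = 0.0656). RAB23, an inhibitor of Hedgehog signalling, had 3.17 ± 0.19 with 52.0% ± 5.0 of its signal in light polysomes, and RAB34, needed for cilium assembly, 3.32 ± 0.38. The list median, taken within each gradient and averaged, was 3.03 ± 0.18 (SD, n = 3), and the median of the mean MRLs was 3.17.

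**Figure D2:**
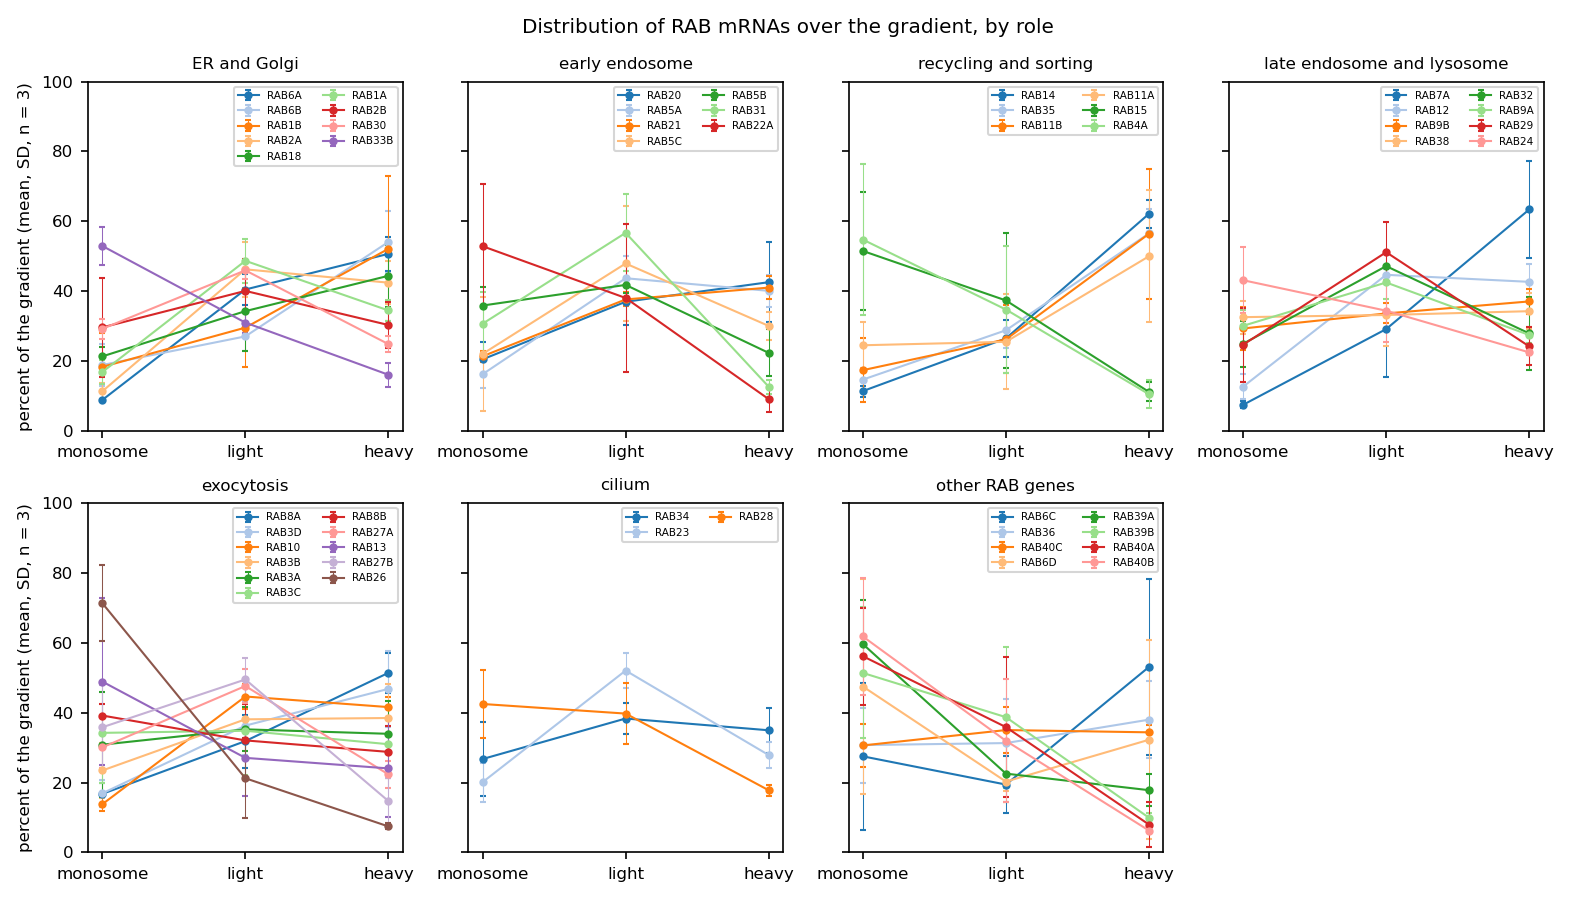
Percent of the signal of each RAB mRNA in the monosome, light and heavy polysome fractions (vertical axis, mean with SD over 3 gradients), in 1 panel per role. RAB7A, RAB14 and RAB35 climb towards heavy polysomes (63.4%, 62.1% and 56.5%), RAB31, RAB23 and RAB29 peak in light polysomes, and RAB26 and RAB40B descend from the monosome (71.3% and 61.8%).

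The remaining RAB genes, less studied or with a SOCS box, had the lowest median of the role lists, 2.33 ± 0.41 (SD, n = 3). The median of their mean MRLs was 2.57. Of these 8, 0 were higher and 4 lower, beside 22% and 24.7% of all genes kept. Values of RAB6C, RAB6D and RAB40A among them are uncertain, as their sequences are partly shared with other genes. RAB40 proteins carry a SOCS box that recruits a ubiquitin ligase. RAB40B had 1345, 1012 and 1553 normalized counts in monosomes, 1221, 149 and 1103 in light and 159, 89.0 and 165 in heavy polysomes. Monosome libraries lay above all heavy ones, and light library 2 was about as low as heavy libraries 1 and 3. MRL was 1.79 ± 0.23, a log2 difference of -0.83 ± 0.10 from the median gene (SE; limma adjusted p = 0.000805). RAB40A had 19.4, 37.9 and 29.1 in monosomes, 21.1, 6.98 and 25.4 in light and 0.82, 7.68 and 4.31 in heavy polysomes, where the lowest library had 1 read. MRL was 1.94 ± 0.07 (limma adjusted p = 0.000874). RAB40C had 168, 258 and 187 in monosomes, 271, 196 and 230 in light and 213, 231 and 243 in heavy polysomes, with overlap throughout and an MRL of 3.24 ± 0.12.

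RAB39A and RAB39B, of which RAB39B is a gene for X-linked intellectual disability, were both lower. RAB39A had 30.2, 85.3 and 38.8 normalized counts in monosomes, 16.8, 15.4 and 18.7 in light and 11.5, 14.5 and 15.5 in heavy polysomes. RAB39B had 81.9, 275 and 126 in monosomes, 80.2, 61.5 and 193 in light and 17.2, 43.8 and 30.2 in heavy polysomes. Monosome libraries lay above heavy ones in both genes. MRL was 2.23 ± 0.35 for RAB39A (limma adjusted p = 0.00708) and 2.08 ± 0.23 for RAB39B (limma adjusted p = 0.00229). RAB36 had 3.37 ± 0.46 and did not pass.

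RAB6C and RAB6D are near-copies of RAB6A and of each other. Over bases aligned without gaps, their coding sequences were 99.5% identical to each other. They matched RAB6A at 96.3% (RAB6C) and 96.5% (RAB6D) of 627 paired bases, against 77.8% for RAB6B. The first 75 coding bases are shown because reads of 75 nt must tell these genes apart. Capitals mark bases unlike RAB6A, from GENCODE release 29 transcripts of genes on chromosomes 11 (RAB6A), 2 (RAB6C and RAB6D) and 3 (RAB6B).
RAB6A: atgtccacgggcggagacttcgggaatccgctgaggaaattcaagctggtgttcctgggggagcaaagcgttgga
RAB6C: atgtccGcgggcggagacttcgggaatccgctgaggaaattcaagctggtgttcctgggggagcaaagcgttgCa
RAB6D: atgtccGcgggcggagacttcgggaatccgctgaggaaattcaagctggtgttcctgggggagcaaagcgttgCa
RAB6B: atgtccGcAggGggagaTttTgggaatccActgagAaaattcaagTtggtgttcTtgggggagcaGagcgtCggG
RAB6C and RAB6D are alike over this stretch and differ from RAB6A at 2 bases, while RAB6B differs at 12. Of all 75-nt windows of their representative transcripts, 42.9% for RAB6C, 40.1% for RAB6D and 11.1% for RAB6A also occur in transcripts of another gene. RAB6C had 121, 130 and 35.5 normalized counts in monosomes, 59.1, 61.5 and 80.6 in light and 57.3, 420 and 230 in heavy polysomes. RAB6D had 196, 258 and 38.8 in monosomes, 57.6, 74.0 and 71.7 in light and 73.7, 36.6 and 199 in heavy polysomes. In replicate 2 the heavy library was the highest of RAB6C and the lowest of RAB6D. How shared reads were counted is not given in the sources used here, so values of both genes are uncertain. Other members above 10% of shared windows were RAB24 (68.8%, with MXD3), RAB13 (55.3%), RAB5C (33.9%), RAB4A (19.8%, with SPHAR) and RAB40A (11.1%), and their values are uncertain likewise. Genes on the opposite strand overlap 57.7% of the exon bases of RAB23, 42.6% of RAB1B and 37.8% of RAB8A, whose reads can only be told apart if strand was used. Without the 8 members over 10%, a choice made after seeing the data, 10 were higher and 10 lower in MRL.

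The direct contrast of fractions asked which RAB mRNAs were enriched in heavy polysomes over monosomes. By limma on log2(normalized count + 1) with Benjamini-Hochberg adjustment, 16 of 52 were higher in heavy polysomes and 11 lower. Among all genes kept, 49.1% were called, 24.7% as higher and 24.4% as lower, beside RAB shares of 30.8% and 21.2%. RAB7A had the largest rise, 3.07 ± 0.42 on the log2 scale (SE; limma adjusted p = 0.000121), followed by RAB6A with 2.51 ± 0.36 and RAB14 with 2.45 ± 0.34. RAB40B had the largest fall, -3.27 ± 0.61 (limma adjusted p = 0.000889), followed by RAB26 with -3.21 ± 0.49 and RAB40A with -2.72 ± 0.67. The 11 members with a higher MRL were also higher here, together with RAB1B (1.53), RAB5A (1.33), RAB1A (1.05), RAB18 (1.04) and RAB21 (0.94), and both measures come from the same libraries. The heavy and monosome libraries did not overlap for 30 of the 52, against 60.5% of all genes kept.

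These calls depended on the replicates and on scaling. Without replicate 1 the counts were 10 higher and 8 lower, without replicate 2 they were 22 and 13, and without replicate 3 they were 10 and 10. Shares of all genes called in these fits are not given here, so the changes are not read as particular to RAB genes. Of the 27 calls, 14 passed in each of these fits, while RAB10, RAB18, RAB1A, RAB1B, RAB21, RAB28, RAB31, RAB33B, RAB5A and RAB6B were lost without replicate 1 (limma adjusted p between 0.0506 and 0.292). RAB11B, RAB18, RAB1A, RAB1B, RAB21, RAB28, RAB31, RAB39A and RAB3D were lost without replicate 3 (adjusted p between 0.052 and 0.222). With the replicate number as a block, RAB24 was also lower (-0.92; limma adjusted p = 0.0423). Scaling by library totals in place of the authors' size factors moved the median gene up by 1.27 on the log2 scale, and 34 RAB genes were then higher and 3 lower. How many of all genes were called under library totals is not given here, so these counts are not compared. Under that scaling the lower calls of RAB28 and RAB31 turned to 0.05 and 0.04, which did not pass, so directions are relative to the typical gene.

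**Figure D3:**
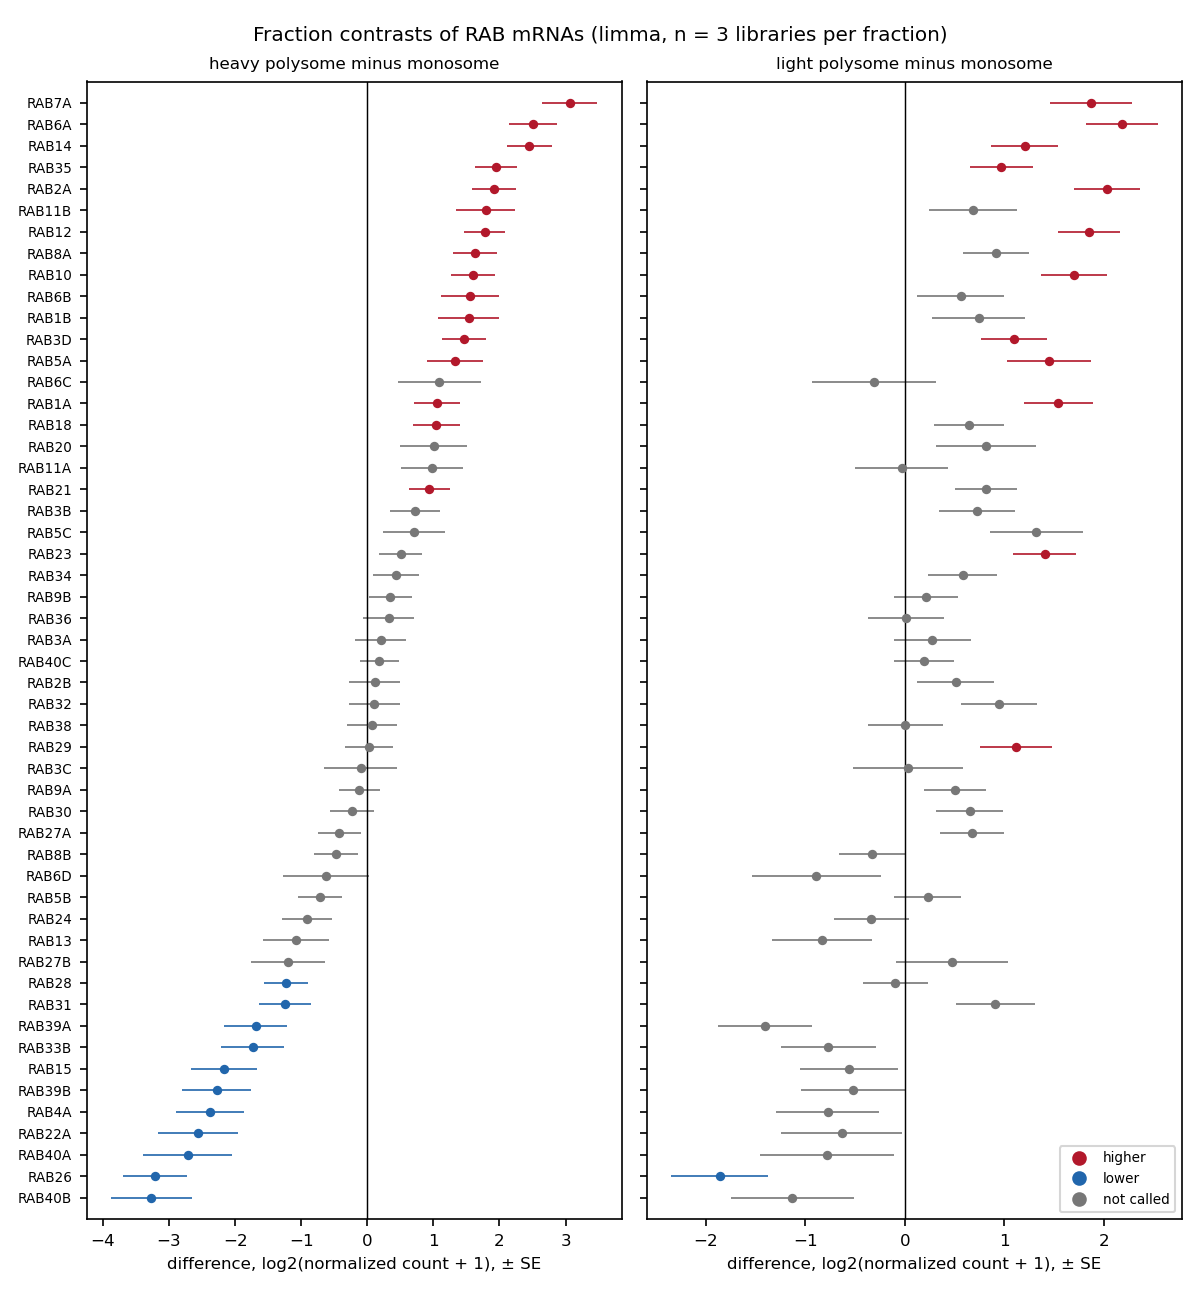
Log2 differences of normalized counts with SE for the 52 RAB mRNAs kept, heavy polysome minus monosome (left) and light polysome minus monosome (right), in the same gene order; red is higher, blue lower and grey not called by limma. The left panel runs from 3.07 for RAB7A to -3.27 for RAB40B, and the right panel has 12 red members and 1 blue one, RAB26.

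In light polysomes against monosomes, 12 RAB mRNAs were higher and 1, RAB26, was lower by the same limma fit. Among all genes kept 18.7% were called, 8.47% as higher and 10.2% as lower, while the RAB shares were 23.1% and 1.92%. The higher ones were RAB6A, RAB2A, RAB7A, RAB12, RAB10, RAB1A, RAB5A, RAB23, RAB14, RAB29, RAB3D and RAB35. RAB6A led with 2.18 ± 0.36 on the log2 scale (SE; limma adjusted p = 0.00128), followed by RAB2A with 2.03 ± 0.33 (limma adjusted p = 0.00123), and RAB26 had -1.86 ± 0.49 (limma adjusted p = 0.0164). RAB23 and RAB29 were higher in light polysomes and were not called in heavy ones, with heavy minus monosome log2 values of 0.50 and 0.03. The list median was 0.54 for RAB genes, beside 0.04 for all genes kept. Libraries of the light and monosome fractions did not overlap for 19 of the 52, against 35.8% of all genes kept.

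The number of light polysome calls fell without replicate 1 or 3 and rose without replicate 2. Without replicate 1 there were 2 higher and 1 lower, without replicate 2 there were 19 and 2, and without replicate 3 there were 4 and 0. Here too, shares of all genes called in the same fits are not given, and no trait of RAB genes is read from the changes. RAB2A and RAB6A were the 2 of 13 that passed in each of these fits. RAB10, RAB14, RAB1A, RAB23, RAB29, RAB35, RAB3D and RAB5A were lost without replicate 1 and also without replicate 3 (limma adjusted p between 0.0644 and 0.329). RAB12 (0.0529) and RAB7A (0.0881) were lost without replicate 1 and RAB26 (0.0818) without replicate 3, as limma adjusted p. RAB29 was also lost without replicate 2 (adjusted p = 0.0732) and with the replicate block (limma adjusted p = 0.0526). Under library totals the median gene moved up by 1.19 on the log2 scale, and 37 were higher and 0 lower. These counts also stand without the share of all genes called under that scaling.

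In heavy against light polysomes, 3 RAB mRNAs were higher and 14 lower by limma, and among all genes kept 32.2% were called, 14.7% as higher and 17.5% as lower. RAB14 was higher by 1.25 ± 0.34 on the log2 scale (SE; limma adjusted p = 0.0154), RAB7A by 1.19 ± 0.42 (limma adjusted p = 0.0412) and RAB35 by 0.98 ± 0.32 (limma adjusted p = 0.0311). The lower ones were RAB31, RAB40B, RAB40A, RAB22A, RAB39B, RAB27B, RAB4A, RAB15, RAB26, RAB28, RAB27A, RAB29, RAB5B and RAB23. RAB31 had the lowest adjusted p, at -2.15 ± 0.40 (SE; limma adjusted p = 0.00682). Of these 17 calls, 0 passed without replicate 1 and 0 without replicate 3, with limma adjusted p between 0.0659 and 0.508. Without replicate 2, where the light library stood apart, 10 were higher and 19 lower, and the 17 calls all passed. The share of all genes called in each of these fits is not given here. The losses and gains are therefore not read as a result about RAB genes. With the replicate block RAB5B was lost (limma adjusted p = 0.0504), while RAB33B (adjusted p = 0.0302) and RAB30 (adjusted p = 0.045) were lower and RAB6B (adjusted p = 0.0446) was higher. By edgeR in place of limma the RAB7A call was lost (edgeR adjusted p = 0.0897). Under library totals RAB26, RAB5B, RAB29 and RAB23 were lost (limma adjusted p between 0.0516 and 0.103).

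Close paralogs were compared within the same libraries. Of 18 pairs with both members kept, some of which share a member, 12 differed in the same direction in all 3 gradients. The exact sign-flip permutation test over 3 gradients (two-sided) cannot go below p = 0.25, or 0.375 adjusted over the 18 pairs, so no pair can pass. RAB40B was below RAB40C by -1.45 ± 0.15 in MRL (SD, n = 3), with differences of -1.29, -1.58 and -1.48. RAB8A exceeded RAB13 by 1.44 ± 0.68, RAB8B by 1.13 ± 0.12 and RAB5A exceeded RAB5B by 0.92 ± 0.18, each in 3 of 3 gradients. RAB2A exceeded RAB2B by 0.70 ± 0.50, also in 3 of 3. RAB3A was below RAB3D (-0.66 ± 0.24), RAB5B below RAB5C (-0.48 ± 0.42), RAB22A below RAB31 (-0.46 ± 0.08), RAB9A below RAB9B (-0.35 ± 0.28) and RAB11A below RAB11B (-0.33 ± 0.15) in 3 of 3 gradients.

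Smaller differences in 3 of 3 gradients separated RAB8A from RAB10 (0.30 ± 0.29) and RAB39A from RAB39B (0.15 ± 0.13). RAB6A and RAB6B differed by 0.03 ± 0.46, with 1 gradient in one direction and 2 in the other. RAB1A minus RAB1B was -1.08, 0.47 and -1.17 in gradients 1, 2 and 3, so replicate 2 ran the other way. RAB5A minus RAB5C (0.44 ± 0.39), RAB27A minus RAB27B (0.35 ± 0.34), RAB3A minus RAB3B (-0.27 ± 0.72) and RAB32 minus RAB38 (-0.11 ± 0.33) also changed sign between gradients. Over bases aligned without gaps, the coding sequences of the 18 pairs were between 68.6% (RAB8A and RAB13) and 79.7% (RAB40B and RAB40C) identical. The mean differences of these 2 pairs were 1.44 ± 0.68 and -1.45 ± 0.15, and values of RAB13 are uncertain because of shared windows. Whether identity relates to the difference in load over the 18 pairs was not tested.

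**Figure D4:**
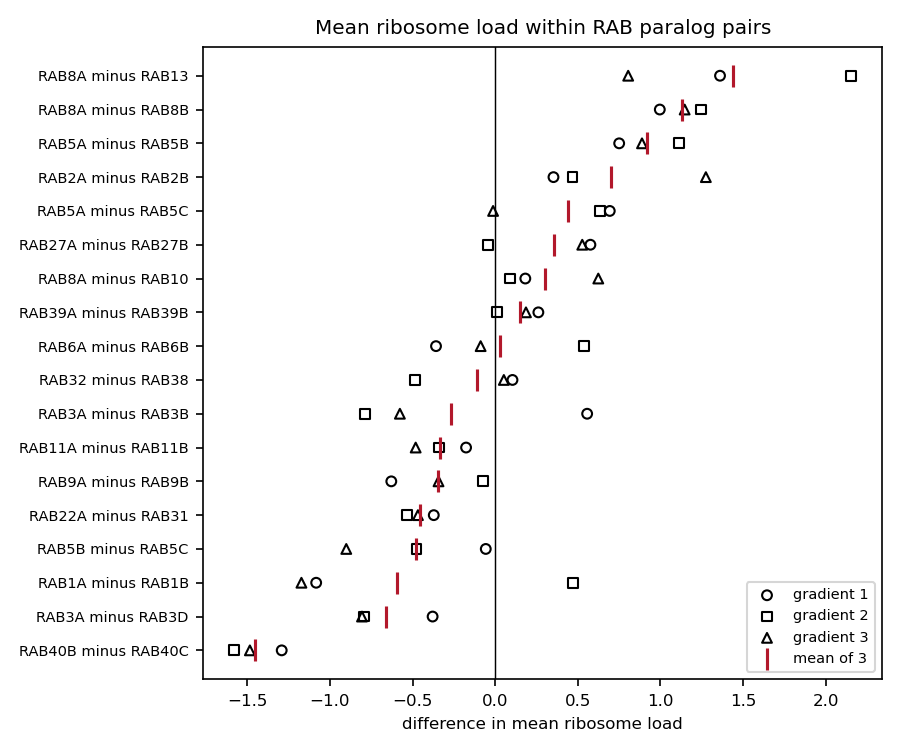
Difference in mean ribosome load (horizontal axis) between the members of 18 RAB paralog pairs, with 1 open symbol per gradient and a red bar at the mean. RAB40B minus RAB40C lies left of 0 in all gradients (mean -1.45) and RAB8A minus RAB8B right of it (mean 1.13), whereas RAB1A minus RAB1B spans 0.

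RAB mRNAs without an ATG in the annotated 5′ UTR had a higher median load, a relation that was looked at after the values were seen and is given as a description with no test. The 28 members with 0 upstream ATGs had a median MRL of 3.53, and the 24 with at least 1 had 2.95. Within gradients 1, 2 and 3 the difference of medians was 0.61, 0.31 and 0.79, with a mean of 0.57. Of the 28, 8 were called higher and 3 lower, and of the 24, 3 were higher and 10 lower. Among all genes with a coding length in the RAB range of 585 to 1002 nt, 341 were higher and 258 lower of 1266 with 0, and 195 were higher and 458 lower of 1223 with at least 1. RAB members with 2 or more upstream ATGs had a median of 2.88 (n = 12), and those with 1 had 3.02 (n = 12). Per gradient the medians were 2.87, 2.89 and 2.75 with 2 or more and 3.18, 2.79 and 2.73 with 1, so the order of these classes changed between gradients. Without 1 replicate at a time the mean difference lay between 0.46 and 0.70.

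Other genes showed a higher median without upstream ATGs too. Over genes kept with a coding length, the medians were 3.31 with 0, 3.21 with 1 and 3.07 with 2 or more upstream ATGs. Among the 2489 genes of the RAB coding-length range they were 3.34, 3.05 and 2.78, beside the RAB medians of 3.53, 3.02 and 2.88. Across genes, the Spearman coefficient of upstream ATG number with MRL was -0.44 for the 52 RAB genes and -0.13 for 12715 genes, which share libraries. Coding length had a coefficient of -0.15 with MRL in RAB genes, whose coding lengths span little, and 0.25 in all genes, where gradients 1, 2 and 3 gave 0.16, 0.48 and 0.09. For mean normalized count it was 0.28 in RAB genes and 0.08 in all genes. For the length of the 5′ UTR it was 0.02 in RAB genes and 0.01 in all genes.

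**Figure D5:**
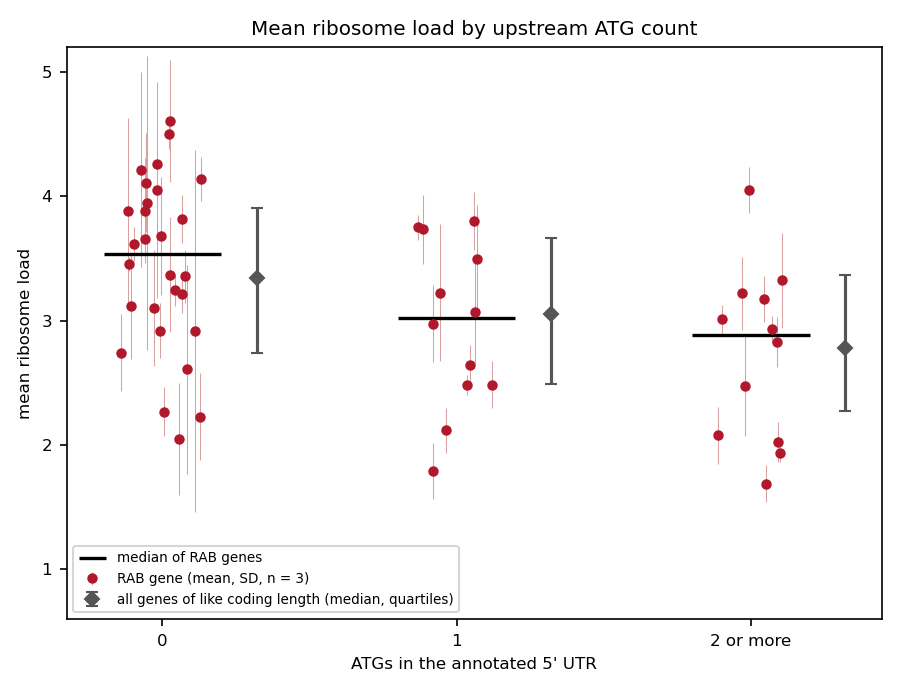
Mean ribosome load (vertical axis) of RAB mRNAs with 0, 1 and 2 or more ATGs in the annotated 5′ UTR: red points are genes (mean and SD, n = 3 gradients), black bars RAB medians of 3.53, 3.02 and 2.88, and grey diamonds the medians and quartiles of all genes of like coding length. The classes overlap, with RAB8A at 4.05 in the last class and RAB4A at 2.05 in the first.

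Exceptions stood in both classes. RAB4A, RAB39A and RAB33B have 0 upstream ATGs and MRLs of 2.05, 2.23 and 2.27. RAB8A (4.05), RAB12 (3.80) and RAB10 (3.75) have at least 1 and were higher. The annotated 5′ UTR is that of 1 representative transcript per gene, and which transcripts HEK293 cells use was not tested. In RAB40A that 5′ UTR holds 46 ATGs, and its value rests on a mean of 15 reads.

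For genes that act on RAB proteins, call counts are read against 22% higher and 24.7% lower among all genes kept. Of 8 genes for prenylation and membrane extraction, 1 was higher and 3 lower, and RABIF, a chaperone-like RAB partner, had the lowest MRL (1.73 ± 0.07, lower). Exchange factors numbered 7 higher and 7 lower of 43, between RAB3IL1, an exchange factor for RAB3A and RAB8A, at 4.48 ± 0.58 and TRAPPC2, a subunit of the TRAPP complex, at 2.03 ± 0.15. GTPase-activating proteins numbered 7 higher and 10 lower of 44, between TBC1D10A, which acts on RAB27A and RAB35, at 4.10 ± 0.53 and TBC1D3D at 2.10 ± 0.45. Of the 10 lower calls, 5 are near-identical TBC1D3 copies (TBC1D3D, TBC1D3G, TBC1D3K, TBC1D3E and TBC1D3L), whose reads may not be told apart. Of 33 effectors, 3 were higher and 4 lower. The golgin GOLGA2 was highest at 3.80 ± 0.80, which did not pass, and RILP, the effector that links RAB7A to dynein, lowest at 2.11 ± 0.45. Median MRLs were 2.85 ± 0.31 for prenylation, 3.12 ± 0.06 for exchange factors, 3.23 ± 0.09 for GTPase-activating proteins and 3.36 ± 0.22 for effectors, beside 3.24 ± 0.17 for RAB genes. Without replicate 1 the 4 lists together had 3 higher and 8 lower, against 18 and 24 with all replicates, and without replicate 3 they had 12 and 25. Without replicate 2, prenylation genes had 3 higher and 4 lower and exchange factors 7 and 9. GTPase-activating proteins then had 10 and 13, and effectors 7 and 6. The shares of 22% and 24.7% hold for all replicates, and none is given for fits without 1 of them.

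Other small GTPases had medians on either side of that of the RAB family. The median MRL of ARF and ARL genes was 3.64 ± 0.34, and 9 of 22 passed as higher and 4 as lower, beside 22% and 24.7% of all genes kept, with the highest value, 4.48 ± 0.69, for ARF1, which builds COPI coats. RAS-related genes had 2.60 ± 0.08, with 0 of 15 higher and 8 lower, between RALA at 3.18 ± 0.19 and RAP2A at 2.05 ± 0.26. Of RAN and the SAR1 genes, SAR1A was highest (3.97 ± 0.41, higher) and SAR1B lowest (2.68 ± 0.17). Without replicate 1 or without replicate 3, 5 ARF and ARL genes were higher and 3 lower, and 4 RAS-related genes were lower without replicate 1. Without replicate 2, 13 ARF and ARL genes were higher and 6 lower, and 9 RAS-related genes were lower. Shares of all genes called in these fits are not given beside them. The difference between these groups and the RAB family was not tested.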

How the data were processed

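Each library is RNA from 1 gradient fraction, read from 1 end over 75 nt, per the labels. Per the submitters' processing notes, featureCounts and GRCh38 were used; aligner, counting options and strand setting: not given in the sources used here. Signal values deposited by the authors equal read counts scaled by a library's size factor, and whole reads were recovered for 100% of values in every library (tolerance 0.01). The deposited percent values split a gene over the 3 fractions of 1 replicate, and the deposited MRL score weights these by 1, 2.5 and 6; both were recomputed from the signal to within 5.5e-08 and 2.18e-09. The monosome columns carry the letter A where the library names of the labels carry M; they were assigned because the authors' fraction classes call genes monosome where these columns are highest.

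As the values were normalized and not raw counts, limma (3.58.1, trend, R 4.3.3) was fitted to log2(normalized count + 1) of the 9 libraries with fraction as the only term; fold changes on that scale understate low genes. MRL was tested per gradient against the median gene. Genes needed a mean of at least 10 reads and reads in each gradient, which kept 12720 of 13661. Tests were two-sided with a Benjamini-Hochberg adjusted p of 0.05 over all genes kept. Per-gene percentages, loads and differences in paralog pairs are means ± SD over 3 gradients. The alternatives were edgeR (4.0.16), DESeq2 (1.42.0), TMM and library totals scaling, pseudocounts of 0.5 and 5, no filter, other weights and centring, a replicate block and leaving out each replicate. Scripts were tested on simulated data.

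The labels call replicates biological and give each replicate number as a batch, so numbers pair libraries by the labels. Deviations from fraction means of same-numbered libraries correlated at 0.14, 0.13 and -0.05 (monosome and light, replicates 1 to 3), 0.10, -0.14 and -0.54 (monosome and heavy) and 0.09, 0.20 and 0.39 (light and heavy). Those of differently numbered libraries ran from -0.45 (light 2 and heavy 3) to 0.39 (light 1 and heavy 3). The pairing by number therefore rests on the labels and is not shown by these values.

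Gene models, coding lengths and sequences are from GENCODE release 29, with 1 representative transcript per gene. Values in every library are given for the 4 highest and 4 lowest members by MRL, the 6 of highest mean count and members of the paralog pairs; outside the family each list is shown by its highest and lowest gene, except for some genes and 1 list that are not reported here. Other genes were named after their values were seen. Members, lists and rules were chosen with earlier results of these data known. ERCC spike-ins, added per the labels, were not used here.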

Additional observations from a re-analysis of the deposited data

How the results depend on the processing

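Of the RAB counts, several moved by over 1.5 times under another setting. Shares of all genes called under each setting are not given beside them, so the moves are not read as particular to RAB genes. MRL calls (11 higher, 13 lower) were 17 and 11 when centred on the mean gene, 7 and 13 under library totals, and 18 and 3 when the summed light and heavy percent replaced MRL. Library totals gave 34 higher and 3 lower for heavy minus monosome and 37 and 0 for light minus monosome, and moved the median percentages of RAB genes to 12.9 (monosome), 43.9 (light) and 39.7 (heavy), against 25.8, 39.2 and 32.1. Under that scaling heavy minus monosome turned to 0.048 for RAB28, 0.036 for RAB31, 0.85 for RAB27A, 1.04 for RAB30 and 1.16 for RAB9A, and light minus monosome to 1.10 for RAB28 and 1.17 for RAB11A. It moves the median gene by 1.27 and 1.19 in these contrasts. In light minus monosome, 2 were lower with no filter, a pseudocount of 5, edgeR or DESeq2, and in heavy minus light 5 were higher by DESeq2. Leaving out 1 replicate gave ranges of 5 to 17 higher and 8 to 13 lower for MRL, 10 to 22 and 8 to 13 for heavy minus monosome, 2 to 19 and 0 to 2 for light minus monosome, and 0 to 10 and 0 to 19 for heavy minus light. The replicate block gave 16 higher and 12 lower, 11 and 1, and 4 and 15 for the 3 contrasts in that order, and changed no other call than those given. The MRL test has 1 value per gradient, so no block applies to it. Weights of 1, 3 and 8 left 24 of 24 MRL calls in place. Depth limits RAB27B, RAB40A and RAB39A, with means of 16, 15 and 23 reads. The cause of each change was not tested, apart from the shift of the median gene under library totals.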
